A study of Mus musculus with 2 samples.

Results

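The genes described here encode splicing factors, RNA helicases, translation factors and related RNA-binding proteins that differed between embryonic mouse cortex lacking Trrap and its control. They were chosen by name: every row of the deposited table with a single symbol that begins like one of 20 gene families (Srsf, Hnrnp, Snrp, Sf3a and Sf3b, Prpf, Lsm, Luc7, Rbm, Ddx, Dhx, Eif, Eef, Celf, Elavl, Khdrbs, Mbnl, Rbfox, Pabp, Cpsf and Exosc) and has a value above 0 in both libraries, leaving out the sex-linked genes Ddx3x, Ddx3y, Eif2s3x and Eif2s3y. This gave 37 rows, with 1 row per symbol, out of 2317 single-symbol rows with both values above 0 and 2381 rows in all. Expression was measured by RNA sequencing in 2 samples of cortex from B6/129 embryos at stage E14.5. In the Trrap-deleted sample both Trrap alleles were floxed, and in the control, entered as wild type, 1 allele was floxed. Embryos of both genotypes carried Nestin-Cre, a recombinase transgene expressed in neural progenitors and inherited by their progeny. The control is therefore itself heterozygous for the deletion. How many embryos went into either sample is not stated. Trrap, the scaffold of several histone acetyltransferase complexes, had no row in the table and gave no check of the labels.

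Values are FPKM (fragments scaled by the length of the transcript and the size of the library). Comparison of levels between libraries also rests on how the 2 libraries are scaled to each other. Between genes it also rests on how well each locus is told apart from neighbouring sequence and near-identical copies. Each genotype had 1 library, so no value has a standard deviation, the spread between embryos is unknown, and no test between genotypes could be run here. "Listed" means that a row passed the authors' own test at a q-value under 0.05, and a gene that is not listed may be unchanged, untested or not expressed. With 1 library per genotype the authors' q-values cannot include the spread between embryos. They are quoted as deposited and do not measure how far a difference would hold in other embryos. All differences are Trrap-deleted over control, as log2 or as a fold. In bulk tissue, fewer cells of a type and less RNA per cell cannot be told apart.

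Pre-mRNA splicing is carried out by the spliceosome, whose small nuclear ribonucleoproteins recognise the splice sites. SR proteins mostly promote the use of exons they bind, and many hnRNP proteins oppose it, so the balance between them shapes alternative splicing. In the developing brain, Elavl, Rbfox and related proteins add a layer of control as progenitors become neurons. Translation begins when initiation factors load the ribosome on the mRNA and find the start codon, and elongation factors then deliver transfer RNAs and move the ribosome along.

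The larger part of these genes had less RNA in the cortex without Trrap. Of the 37 rows, 26 (70.3%) were lower and 11 (29.7%) were higher, against 41.6% lower and 58.4% higher over all 2317 rows. The median log2 difference was -0.46, against 0.55 over all rows. At a mean of at least 50 FPKM the contrast of medians was absent: the median was -0.49 for 23 of these rows and -0.53 for all 466 rows. The shares lower there were closer but still apart, 87.0% (20 of 23) against 72.1%. The differences were small: the middle one of the lower rows was 1.47-fold and of the higher rows 1.47-fold, against 1.80-fold for all rows. Only 1 row was at least 2-fold lower (13.3% of all rows were) and 3 were at least 2-fold higher (25.6% of all rows). Large differences were also rarer among abundant rows in general. Of all 466 rows at or above 50 FPKM, 46 were at least 2-fold lower and 9 at least 2-fold higher.

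Rows that were lower were also the abundant ones. The lower genes had a median level of 93.6 FPKM, averaged over both libraries, and the higher genes 19.2 FPKM. Listed rows in general followed the same order: of all rows with a mean of at least 50 FPKM, 72.1% were lower, and of those under 50 FPKM 34.0% were. Among the splicing and translation rows, 20 of 23 at or above 50 FPKM were lower and 6 of 14 below it. When all rows were put in 10 equal groups by mean FPKM, 10 of the 12 genes in the most abundant group were lower, beside 84.1% of all rows there. In the next group 10 of 11 were lower, beside 59.9% of all rows. If each gene had been lower as often as all rows of its level group, 21.9 of the 37 would have been lower, beside the 26 counted. Level thus moves with direction in the whole table, and whether anything beyond it is particular to these families was not tested.

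**Figure D1:**
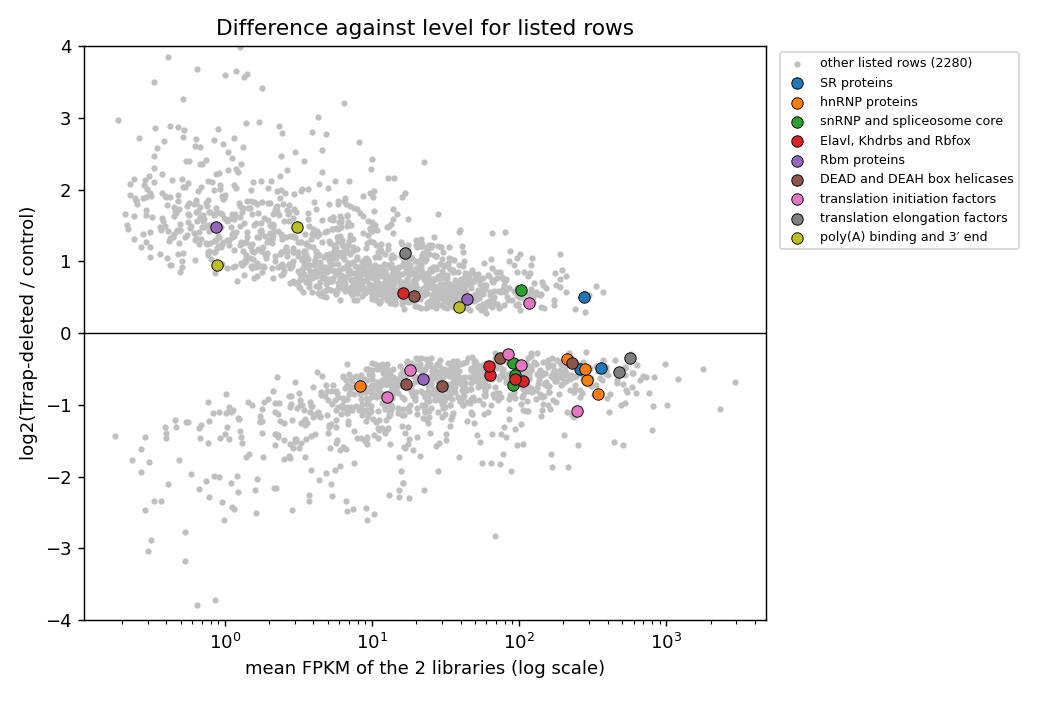
Log2 difference (Trrap-deleted over control) against mean FPKM (log scale) for listed rows, 1 point per row, with the splicing and translation factor rows coloured by role; 15 other rows lie beyond the axis limits of -4 and 4. The coloured points gather at high levels and small negative differences, and the empty band around 0 reflects that only rows passing the authors' test were deposited.

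**Figure D2:**
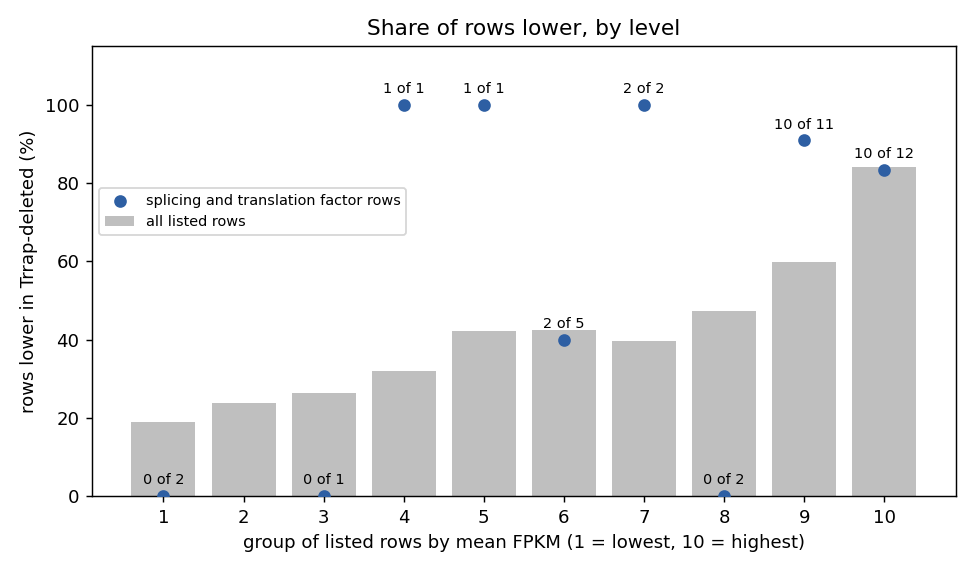
Percent of rows lower in the Trrap-deleted cortex in 10 equal groups of listed rows by mean FPKM, as bars for all rows and points for the splicing and translation factor rows, with their counts. The bars climb from 19.0% in the least abundant group to 84.1% in the most abundant, where 10 of 12 factor rows were lower.

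Splicing activators of the SR family moved in opposite directions. Srsf1, which binds exonic enhancers (chromosome 11, 87825493 to 87867424; all locus positions are on mm9, counted from 1), was at 422 FPKM in the control and at 301 FPKM without Trrap. Srsf3, the smallest SR protein (chromosome 17, 29169542 to 29180348), was at 306 and 216 FPKM. Srsf5, an SR protein of the same family (chromosome 12, 82046475 to 82051574), went the other way, from 228 to 322 FPKM. The log2 differences were -0.49, -0.50 and 0.50. In the authors' deposited table their q-values were 0.0149, 0.00403 and 0.00595. Srsf5 was the least abundant of the 3 in the control and the most abundant in the Trrap-deleted library. The ratio of Srsf5 to Srsf1 went from 0.541 to 1.07, a 1.98-fold shift, and that of Srsf5 to Srsf3 went from 0.747 to 1.496. Such a ratio within a library does not depend on how the 2 libraries are scaled to each other. The locus listed for Srsf1 is 6.57 times as long as the annotated gene, and Srsf3 and Srsf5 have near-identical copies elsewhere, so these levels are less certain than the values alone show.

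The 150 bases before the annotated start of these 3 genes are shown because the genes share a family and differ in direction. They are RefSeq promoters on GRCm38.p6, 5′ to 3′ on the gene's strand, and capitals mark matches on either strand to 6 motifs. The CCAAT box was searched by the letters of its name and the TATA box as TATAAA. The letters of the GC box were GGGCGG, and those of the Ets site were CCGGAAG. An E-box that Myc can bind was searched as CACGTG, and the core of the Nrf1 site as GCGCATG.
Srsf1, chr11:88047223-88047372, plus strand: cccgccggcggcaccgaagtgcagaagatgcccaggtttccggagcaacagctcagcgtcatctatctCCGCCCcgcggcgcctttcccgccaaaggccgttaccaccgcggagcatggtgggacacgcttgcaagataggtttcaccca
Srsf3, chr17:29032510-29032659, plus strand: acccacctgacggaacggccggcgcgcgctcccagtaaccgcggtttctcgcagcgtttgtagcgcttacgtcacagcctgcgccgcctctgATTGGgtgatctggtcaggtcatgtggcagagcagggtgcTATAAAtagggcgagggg
Srsf5, chr12:80945349-80945498, plus strand: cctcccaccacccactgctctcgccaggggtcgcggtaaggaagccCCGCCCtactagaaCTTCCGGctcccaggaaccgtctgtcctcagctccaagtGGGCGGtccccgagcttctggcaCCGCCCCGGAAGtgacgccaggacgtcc
The Srsf3 sequence held a TATA box and a CCAAT box, that of Srsf1 a GC box, and that of Srsf5 GC boxes and Ets sites, 1 of which overlaps a GC box. These matches are descriptions of letters and say nothing on which factor acts there.

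All 5 listed hnRNP rows were lower, with a median log2 difference of -0.66, though 1 of them is a near copy of another. Over all rows 41.6% were lower. In the most abundant of the 10 level groups, which held the 4 coding hnRNP genes, 84.1% of all rows were lower. Hnrnpa1, a splicing repressor and mRNA shuttling protein (chromosome 15, 103070945 to 103074445), had the largest difference, from 438 to 244 FPKM. Its log2 difference was -0.84 with a q-value of 1.41e-11 in the authors' deposited table. Hnrnpu, a nuclear matrix protein that binds RNA and chromatin (chromosome 1, 180243250 to 180271636), went from 357 to 226 FPKM. Hnrnpab, an hnRNP of the A/B type, went from 328 to 231 FPKM, and Hnrnpc, which binds uridine tracts in introns, from 238 to 185. The fifth row, Hnrnpa1l2-ps, is annotated as a processed pseudogene and went from 10.3 to 6.18 FPKM. The 4 coding genes stood between 238 and 438 FPKM in the control and between 185 and 244 FPKM without Trrap.

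Hnrnpa1 is uncertain as a single locus. Its transcript was 100% identical over 752 bases to Gm10052, a processed pseudogene with its own row (413 to 228 FPKM). Gm7729 (241 to 134 FPKM) and Gm5643 (85.8 to 47.5 FPKM) were 99.7% and 98.8% identical to it over 752 and 745 bases. The log2 differences of these 3 copies were -0.86, -0.85 and -0.85, next to -0.84 for Hnrnpa1 itself. The pseudogene row Hnrnpa1l2-ps, with a log2 difference of -0.74, was also 95.5% identical to Hnrnpa1 over 755 bases. Reads from such copies can be split or counted more than once, so these rows are not separate measurements, and Hnrnpa1 and Hnrnpa1l2-ps may not count as separate among the 5 hnRNP rows.

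Components of small nuclear ribonucleoproteins and proteins grouped with them by name were lower in 3 of 4 rows. The share lower was 41.6% over all rows and 59.9% in the level group that held these 4. Snrpa, the A protein of the U1 particle (chromosome 7, 27972024 to 28013647), went from 112 to 75.0 FPKM. Snrpd1, a subunit of the Sm ring shared by several spliceosomal particles, went from 104 to 78.4 FPKM. Lsm14b, an Lsm-domain protein of cytoplasmic mRNA particles rather than of the spliceosome (chromosome 2, 179759692 to 179770170), went from 114 to 68.7 FPKM, a log2 difference of -0.73. Luc7l2, a U1-associated protein that influences the choice of the upstream splice site (chromosome 6, 38501334 to 38566209), was higher, from 81.3 to 124 FPKM. Its log2 difference was 0.60 with a q-value of 6.00e-05 in the authors' deposited table. The 4 genes stood between 81.3 and 114 FPKM in the control, where Luc7l2 was the lowest of them, and without Trrap it was the highest. No gene of the Sf3a, Sf3b or Prpf families, which build the U2 particle and the catalytic core, was listed, out of 9 and 13 annotated protein-coding genes.

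Regulators of splicing and mRNA fate in neurons were lower in 4 of 5 rows. The share lower was 41.6% over all rows and 59.9% in the level group that held the 4 lower ones. The neuronal Hu proteins Elavl2 and Elavl3 bind uridine-rich mRNA and favour neuronal differentiation. Elavl2 (chromosome 4, 90917194 to 91067476) went from 131 to 82.2 FPKM and Elavl3 (chromosome 9, 21819049 to 21856510) from 76.3 to 50.7. Their log2 differences were -0.67 and -0.59, with q-values of 0.0482 and 7.60e-07 in the authors' deposited table. Khdrbs1, which encodes the signal-responsive splicing regulator Sam68, went from 114 to 73.2 FPKM.

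The Rbfox genes, which encode regulators of neuronal exons that bind the same short motif, were split. Rbfox2, which is widely expressed and already active in progenitors (chromosome 15, 76909418 to 77137518), was lower, from 72.2 to 52.5 FPKM. Rbfox1, which is more restricted to neurons and muscle (chromosome 16, 6348535 to 7412574), was higher, from 13.1 to 19.3 FPKM. The log2 differences were -0.46 and 0.55, with q-values of 0.00100 and 0.0196 in the authors' deposited table. The ratio of Rbfox1 to Rbfox2 went from 0.182 to 0.367, a 2.02-fold shift, although Rbfox2 remained the more abundant in both libraries. By contrast the ratio of Elavl3 to Elavl2 was 0.583 and 0.617. Rbfox3, Elavl1, Elavl4 and all 6 Celf and 3 Mbnl genes were not listed.

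The 3 listed Rbm genes, which are named for an RNA-binding motif and have diverse roles, had no common direction. Rbm15b, a partner of the complex that methylates adenosines in mRNA, went from 27.2 to 17.4 FPKM. Rbm18, whose role is little known, went from 36.9 to 51.4 FPKM. Rbm11, a splicing regulator known from brain and testis, was barely expressed and went from 0.460 to 1.28 FPKM, a 2.78-fold difference. Its q-value in the authors' deposited table was 0.0449.

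Helicases of the DEAD box family unwind RNA or remodel its protein coat at many steps. Of the 5 rows grouped here by the Ddx name alone, 4 were lower. The share lower was 41.6% over all rows and 72.1% over rows of at least 50 FPKM. Ddx39b, which couples splicing to mRNA export (chromosome 17, 35377909 to 35390677), was the most abundant, at 263 and 197 FPKM. Ddx6, which acts in mRNA decay and silencing in processing bodies, was at 83.1 and 65.4 FPKM. Ddx21, a nucleolar helicase of ribosomal RNA production (chromosome 10, 62042887 to 62065149), had the largest difference of the 5, from 37.2 to 22.4 FPKM. Its log2 difference was -0.73 with a q-value of 3.13e-07 in the authors' deposited table. Ddx26b, now called Ints6l and related to a subunit of the Integrator complex, lies on the X chromosome and went from 21.1 to 12.9 FPKM. Ddx25, a helicase best known from male germ cells, was higher, from 15.8 to 22.5 FPKM. None of 16 annotated Dhx genes was listed.

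Of the 6 rows named for translation initiation factors, 5 were lower. The share lower was 41.6% over all rows and 72.1% over rows of at least 50 FPKM. Eif5, which triggers GTP hydrolysis once the start codon is found (chromosome 12, 112776312 to 112794270), went from 119 to 87.9 FPKM. Eif3a, the largest subunit of the scaffold eIF3 (chromosome 19, 60836783 to 60866604), went from 92.7 to 75.5 FPKM, the smallest difference of all 37 rows (log2 -0.30). Eif1a, an autosomal relative of the scanning factor eIF1A, went from 16.5 to 8.90 FPKM, a 1.85-fold difference. Eif1ad, a nuclear protein with an eIF1A domain, went from 21.5 to 15.0 FPKM. Eif1b, a close relative of the start-codon selection factor Eif1 (chromosome 9, 120401724 to 120404445), was the exception, from 99.5 to 133 FPKM. Its log2 difference was 0.42 with a q-value of 0.0113 in the authors' deposited table. The ratio of Eif1b to Eif1a, which are relatives of different factors and share only similar names, went from 6.03 to 14.9. Eif1 and Eif1ax were not listed.

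The sixth row, Eif4a-ps4 (chromosome 1, 60760776 to 60761993), had the largest decrease of all 37 rows, from 335 to 157 FPKM, 2.13-fold. In the authors' deposited table it had the lowest q-value of these rows, listed as 0. It is annotated as a processed pseudogene, an intronless copy of a messenger RNA. Its 1218 bases matched the coding region of Eif4a1, the main eIF4A helicase that unwinds mRNA ahead of the ribosome, at 1217 positions. The 81 bases around the single difference, bases 494 to 574 of the pseudogene and 510 to 590 of the Eif4a1 transcript (GENCODE M21), are shown because they are the only place where a read could tell the copies apart within this region. The capital marks the difference.
Eif4a-ps4: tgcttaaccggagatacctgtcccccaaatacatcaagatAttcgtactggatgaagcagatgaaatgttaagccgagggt
Eif4a1: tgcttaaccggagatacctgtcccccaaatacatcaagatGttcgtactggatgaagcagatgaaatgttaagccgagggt
Reads of the 2 genes can hardly be separated, and Eif4a1 was not listed. Gm5513, another copy that was 96.4% identical over 1218 bases, was lower by a similar log2 difference of -1.08 (4.71 to 2.23 FPKM, against -1.09 for Eif4a-ps4). The value of Eif4a-ps4 is therefore uncertain as a measure of that locus.

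Elongation factors included the most abundant gene of the set. Eef2, the translocase that moves the ribosome along the mRNA (chromosome 10, 80639376 to 80645252), was at 632 FPKM in the control and at 496 FPKM without Trrap. Eef1b2, which recharges eEF1A with GTP (chromosome 1, 63223399 to 63227060), was at 562 and 387 FPKM. Their log2 differences were -0.35 and -0.54. Eef1a2, the form of eEF1A that takes over in mature neurons and muscle (chromosome 2, 180876409 to 180891768), was higher, from 10.6 to 22.9 FPKM, a 2.16-fold difference with a q-value of 1.47e-08 in the authors' deposited table. The ratio of Eef1a2 to Eef2 went from 0.0168 to 0.0462, so Eef1a2 remained far below Eef2 in both libraries. Eef1a1, the form general to embryonic tissue, was not listed. Eef1g, another subunit of the exchange complex with Eef1b2, shares its row with Tut1 and was not counted, and that row went from 508 to 286 FPKM.

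The 150 bases before the starts of Eef2 and Eif1b are shown as translation genes of opposite direction that hold the E-box CACGTG, marked as above. Eif3a, which was lower, also had these letters in its promoter and is not shown.
Eef2, chr10:81176481-81176630, plus strand: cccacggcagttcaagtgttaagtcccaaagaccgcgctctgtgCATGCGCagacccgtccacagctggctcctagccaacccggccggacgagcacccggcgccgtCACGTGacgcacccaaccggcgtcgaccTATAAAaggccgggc
Eif1b, chr9:120492456-120492605, plus strand: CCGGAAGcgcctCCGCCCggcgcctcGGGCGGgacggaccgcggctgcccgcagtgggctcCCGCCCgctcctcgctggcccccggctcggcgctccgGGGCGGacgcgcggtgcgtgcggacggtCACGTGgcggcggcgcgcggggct
The Eef2 sequence also held a TATA box and an Nrf1 core, and that of Eif1b GC boxes and an Ets site.

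Genes of the mRNA tail and its formation were higher in all 3 listed rows, 2 of them among the least abundant of the 37. Over all rows 58.4% were higher. In the level groups of Pabpc5, Pabpc1l2a-ps and Cpsf3, only 19.0%, 26.4% and 47.2% of all rows were lower. Cpsf3, the endonuclease that cuts pre-mRNA before the tail is added (chromosome 12, 21292158 to 21320917), went from 34.4 to 44.1 FPKM, a log2 difference of 0.36. The others are X-linked members of the cytoplasmic poly(A)-binding protein family. Pabpc5 went from 0.604 to 1.17 FPKM and Pabpc1l2a-ps from 1.63 to 4.55. GENCODE calls Pabpc1l2a-ps a processed pseudogene, RefSeq calls it a coding gene, and a copy, Pabpc1l2b-ps, was identical to it over 513 bases, so its value is uncertain. Pabpc1, the main member, and all 10 Exosc genes of the RNA exosome were not listed.

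**Figure D3:**
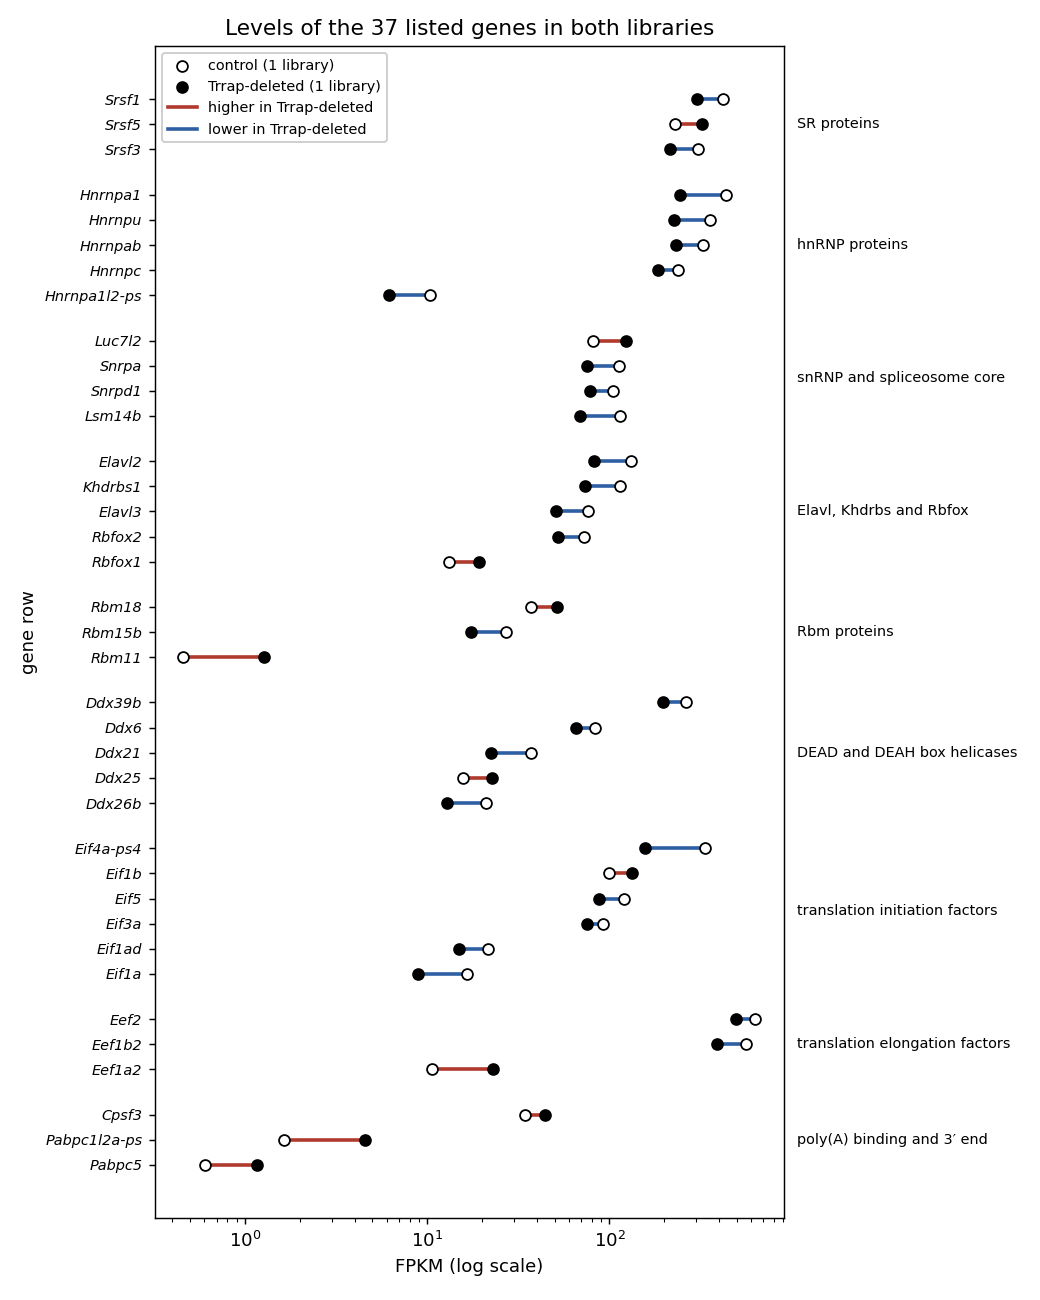
FPKM (log scale) of each of the 37 rows in the control library (open circles) and the Trrap-deleted library (filled circles), 1 library each, grouped by role; the line is red where the Trrap-deleted value is higher and blue where it is lower. In 7 of the 9 groups most rows are blue, all 5 hnRNP rows are, and the 3 rows of poly(A) binding and 3′ end formation are red.

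By role, most rows were lower in 7 of 9 groups, the exceptions being the Rbm proteins (1 of 3 lower) and the poly(A) and 3′ end group (0 of 3). Rows grouped by name as SR, hnRNP and spliceosome genes were lower in 10 of 12 cases (median log2 -0.50). These include Lsm14b, which is not of the spliceosome, and the pseudogene row Hnrnpa1l2-ps. Initiation and elongation factors were lower in 7 of 9 (median -0.44). These groups are small and were formed by name. The share lower was 41.6% over all rows, 72.1% over rows of at least 50 FPKM and 84.1% in the most abundant level group. The listed genes were a minority of their families: 33 of 282 protein-coding genes whose current symbol matches the families were listed (11.7%), against 2021 of all 21919 (9.22%). Both totals count annotated genes whether or not they are expressed in this tissue, so the shares do not compare expressed genes. Families with 0 listed genes held 57 genes together.

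The direction of some rows depended on how the libraries were scaled. If all rows were shifted so that their median log2 difference was 0, a shift of 0.55, 31 of the 37 rows were lower, against 50% of all rows. Under this shift Srsf5 (-0.05), Ddx25 (-0.04), Rbm18 (-0.07), Eif1b (-0.13) and Cpsf3 (-0.19) were no longer higher, while Pabpc1l2a-ps, Rbm11, Eef1a2, Pabpc5, Luc7l2 and Rbfox1 were still above 0, Rbfox1 only just. If instead the summed FPKM of both libraries were made equal, a shift of -0.35, 24 rows were lower (41.0% of all rows), and Eif3a (0.05) and Ddx6 (at 0.00028) were no longer lower. The listed rows are those that differed and are no neutral base for scaling, so neither shift is preferred over the deposited values. The 24 rows lower under equal sums were below 0 under all 3 scalings. They include the hnRNP genes, Srsf1, Srsf3, both Elavl genes and Rbfox2. Khdrbs1, Ddx21, Lsm14b, Eif1a and Eif4a-ps4 are also among them. Hnrnpc (-0.01) and Eef2 (-0.003) were only just below 0 under equal sums.

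**Figure D4:**
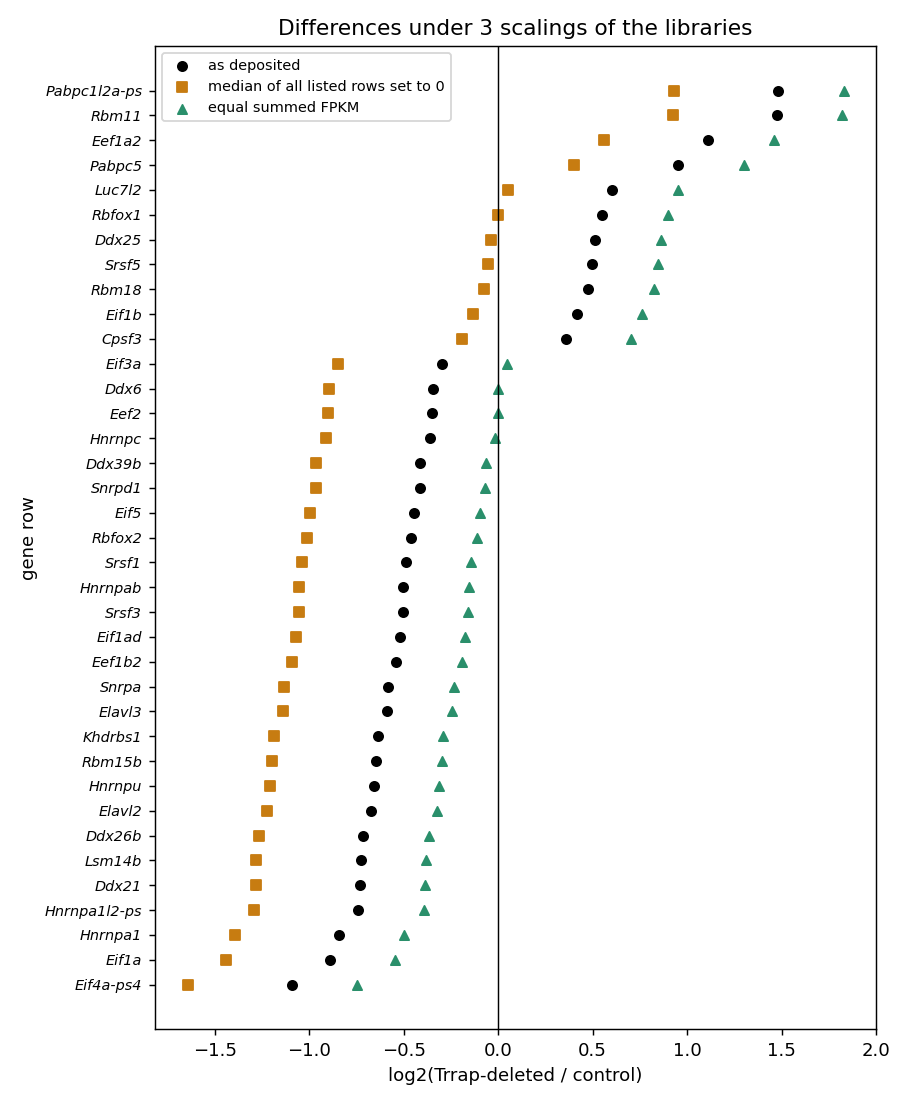
Log2 difference (Trrap-deleted over control) of each of the 37 rows as deposited (circles), with the median of all listed rows set to 0 (squares) and with equal summed FPKM (triangles), ordered by the deposited value. The squares lie 0.55 to the left and the triangles 0.35 to the right of the circles, so rows with small differences cross 0.

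Several features of these genes were not used to choose them. GENCODE annotates 34 of the 37 rows as protein-coding and 3 as processed pseudogenes. For 8 genes the locus in the table was over 1.5 times as long as the annotated gene, most of all for Rbm15b (10.8 times), Srsf1 (6.57 times) and Snrpa (4.49 times), and also for Rbm18, Hnrnpab, Eif5, Hnrnpu and Eef1a2, so their values may include neighbouring sequence. A transcript of another gene at least 95% identical over at least 500 bases was found for 10 rows: besides Hnrnpa1, Hnrnpa1l2-ps, Eif4a-ps4 and Pabpc1l2a-ps, described above, these were Srsf3, Srsf5, Hnrnpc, Luc7l2, Snrpa and Eef2. Of these copies Gm12355, which was 98.3% identical to Srsf3 over 1298 bases, had a row of its own (55.6 to 39.0 FPKM), with a log2 difference of -0.51 next to -0.50 for Srsf3. Transcripts that end early and are marked for nonsense-mediated decay were annotated for 13 of the 34 coding genes (38.2%), against 21.8% of 2035 listed coding rows. The 13 include translation factor genes such as Eef1b2 and Eif5. So-called poison exons, through which many splicing factors limit their own level, are only 1 source of such transcripts. All 3 SR genes had such transcripts and also transcripts with a retained intron. Retained-intron transcripts were annotated for 16 of 24 lower coding genes (66.7%) and 4 of 10 higher ones (40%), against 53.5% of listed coding rows and 61.0% of those at or above 50 FPKM. The table gives 1 value per locus, so whether the mix of transcripts changed was not measured.

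Promoters were found in the RefSeq table for 27 of the 37 symbols, and each was searched from 250 bases before to 50 after the start, counting a promoter once. The letters TATAAA occurred in promoters of 5 of 18 lower genes (Eef2, Elavl3, Hnrnpab, Snrpa and Srsf3) and of 0 of 9 higher ones, against 8.38% of listed genes, 10.6% of listed genes at or above 50 FPKM and 15.7% of all promoters. The CCAAT box occurred in 9 of 18 lower and 2 of 9 higher genes, against 42.9% of listed genes, 48.0% of those at or above 50 FPKM and 41.1% of all, so the lower genes (50%) were close to abundant listed genes. The E-box CACGTG occurred in 6 of the 27 (22.2%), at the same share in lower and higher genes, against 11% of listed genes, 14.7% of those at or above 50 FPKM and 8.09% of all. The GC box was present in 70.4% of these promoters, against 72.3% of listed genes, 75.5% of those at or above 50 FPKM and 38.2% of all. Ets sites were in 22.2%, against 11.1% of listed genes, 14.7% of the abundant ones and 9.93% of all. The Nrf1 core was in 11.1%, against 6.27%, 9.89% and 4.41%. With 27 promoters, each gene moves a share by several percentage points.

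Of 229 other genes of RNA processing in 6 lists outside the family names, 20 were listed (8.73%). Of all protein-coding genes, expressed or not, 9.22% were. Of these 20, 14 were lower (70.0%), beside 41.6% of all rows, and of the 10 with a mean of at least 50 FPKM 9 were lower, beside 72.1% of all rows at that level. The list of RNA-binding proteins known in brain gave 10 of the 20, out of 53 symbols, and 9 of them were lower (median log2 -0.56). Of its rows 8 were at or above 50 FPKM, and 7 of these were lower. Fubp1, which binds single-stranded nucleic acid (137 to 73.8 FPKM), Pcbp1, a poly(C)-binding protein (119.6 to 74.4 FPKM), and Igf2bp2, an mRNA-binding protein of progenitors (39.8 to 66.8 FPKM), had the largest differences among those reaching 5 FPKM. Ptbp2, the neuronal polypyrimidine tract-binding protein that delays neuronal exons (111.5 to 72.1 FPKM), and Srrm4, which activates neuronal microexons (35.0 to 24.8 FPKM), were picked for mention with their values known.

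Lists of the general machinery had 1 to 4 listed members each. The share listed was 1.96% of other spliceosome components and 2.17% of genes of mRNA decay, export and polyadenylation. In the other 3 lists it was between 9.09% and 10.5%, close to the 9.22% of all protein-coding genes, expressed or not. Of 51 other spliceosome components only Zrsr2 was listed (3.63 to 5.21 FPKM). Of 19 splicing kinases and SR-like regulators, Tra2a, an SR-like splicing activator, was lower (128 to 95.3 FPKM) and Sfswap was higher (36.6 to 49.4 FPKM). The aminoacyl-tRNA synthetases Gars (57.9 to 37.5 FPKM) and Lars (26.7 to 19.0 FPKM) were lower, the 2 listed of 22. In translation control 4 of 38 were listed: the ribosomal protein Rps6 (304 to 215 FPKM) and Abce1, which recycles ribosomes (44.2 to 33.0 FPKM, named with its value known), were lower, and Tsc2, an inhibitor of mTOR signalling (20.7 to 32.0 FPKM), and the release factor Gspt2 (3.05 to 6.37 FPKM) were higher. Of 46 genes of mRNA decay, export and polyadenylation, Pan2, a deadenylase subunit, was listed (20.2 to 33.9 FPKM).

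The libraries differed in other ways alongside these genes. Beside the counts below, 58.4% of all rows were higher and 41.6% lower. Level groups 1, 2 and 3, the least abundant, had 19.0%, 23.7% and 26.4% of their rows lower. All 8 listed microglial markers of 15 were higher in the Trrap-deleted library, from a summed 10.8 to 28.1 FPKM with a median log2 difference of 1.46. So were 6 of 7 listed rows of 12 meningeal and mesenchymal markers, with a median log2 difference of 2.89 and such rows as Col1a1 (0.0825 to 1.37 FPKM) and Col3a1 (0.558 to 4.13 FPKM). Their sum went from 22.8 to 28.6 FPKM, a smaller change, since Fn1, the most abundant of them in both libraries, was lower (19.9 to 12.2 FPKM). The pericyte markers Pdgfrb (1.71 to 3.60 FPKM) and Cspg4 (0.353 to 0.635 FPKM), 2 of 11 endothelial and pericyte markers, and the erythroid marker Hbb-y (96.8 to 157 FPKM), 1 of 10, were higher as well. Of listed rows of ventral telencephalic markers 4 of 5 were lower, with a median log2 difference of -2.04 and a sum of 34.5 to 25.3 FPKM, among them Lhx6 (7.06 to 1.71 FPKM), Dlx2 (1.95 to 0.358 FPKM) and Dlx5 (1.68 to 0.276 FPKM). Of 15 cortical progenitor markers 6 were listed, in 7 rows, and 5 of the 7 rows were lower (915 to 649 FPKM summed, median log2 -0.71). Prom1 gave 2 of the lower rows, and Vim (632 to 387 FPKM) was the most abundant. Neurog2 (89.6 to 112 FPKM) and Slc1a3 (30.7 to 55.1 FPKM) were higher. Of neuron markers 2 of 5 were lower, with a sum that fell from 531 to 446 FPKM and a median log2 difference of 0.59, so sum and median differ in direction. The 5 single-symbol rows with a 0 held 0 of these markers, and markers without a row have no value here. The Y-linked genes left out of the set, Ddx3y (0.00653 to 5.18 FPKM) and Eif2s3y (0.111 to 32.8 FPKM), were almost confined to the Trrap-deleted library, and their X-linked partners were lower there, Ddx3x from 163 to 114 FPKM and Eif2s3x from 96.2 to 72.0. The sum of each pair went from 163 to 119 FPKM for Ddx3 and from 96.3 to 105 for Eif2s3. Xist, made from the inactive X chromosome in female cells, was lower but still abundant there (313 to 142 FPKM), so the Trrap-deleted library held both Xist and Y-linked transcripts. The part of cell makeup in the results above was not tested, and the sex makeup of the samples and genotype cannot be told apart with 1 library each. Of the 37 rows 3 lie on the X chromosome, and without the sex chromosomes 25 of 34 were lower (41.0% of all rows).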

How the data were processed

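The data are 1 table from RNA sequencing of 2 samples of embryonic cortex, 1 control and 1 Trrap-deleted. Per the labels' protocols, about 2.5 µg of total RNA went into each TruSeq library. The submitters' processing notes name TopHat2 and build mm9; neither the counting and testing software nor strand use nor read totals are stated there, and depth is unknown. The 2 value columns were read as deposited FPKM, the unit that a header of this Cuffdiff-like layout implies. The authors' deposited p-values and q-values come from their own test, and every row is marked significant. Log2 differences were recomputed and matched those deposited by the authors to within 1.18e-05; the deposited test statistic, which like the log2 column also holds placeholder values for rows at 0 (unit other), was not used.

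Rows with several symbols (59) and single-symbol rows with a 0 (5) were left out. No test between genotypes was run; lists are described by counts and medians beside those of all rows. Members, lists and motifs were chosen with earlier results of these data known. Genes were named by this rule: every row of a role group of up to 6 rows, and in other RNA-processing lists the 3 largest differences reaching 5 FPKM; further names are marked. GENCODE M21 and RefSeq (GRCm38.p6) were matched by symbol for gene types, transcripts and promoters. Near-identical copies were sought with blastn 2.17.0, keeping alignments of at least 500 bases, with 95% identity as the limit. Scripts ran in Python 3.11.15 with pandas 2.3.3 and were tested on simulated data.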

Additional observations from a re-analysis of the deposited data

How the results depend on the processing

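With 1 library per genotype, no alternative measures the spread between embryos, and unknown depth sets no limit of detection. No paired analysis was possible because each genotype has 1 library. The share of rows lower (26 of 37, 70.3%) ranged over the alternatives run from 64.9% (24 of 37, equal summed FPKM) to 87.0% (20 of 23, mean FPKM of at least 50, where 72.1% of all rows were lower). At the authors' q-value under 0.01 fewer rows were left, and 14 of 17 were lower (41.3% of all rows). The median log2 difference of -0.46 was -1.01 with the median of all rows set to 0 and -0.11 with equal summed FPKM, shifts that follow from the scalings themselves. Rows at least 2-fold different in either direction numbered 4, but 19 with the median set to 0, 2 at an FPKM of at least 5 and 2 at a q-value under 0.01. In the other RNA-processing lists 14 of 20 were lower, and 8 of 12 at a q-value under 0.01. Under the median shift the log2 difference changed sign for Cpsf3 (-0.19), Ddx25 (-0.0372), Eif1b (-0.13), Rbm18 (-0.0745) and Srsf5 (-0.0530), and under equal sums for Ddx6 (0.00028) and Eif3a (0.0494). Alternatives chosen after seeing the data, the limit of 50 FPKM among them, left 24 of 34 rows lower without pseudogenes, 20 of 29 without 8 loci over 1.5 times the annotated gene length (Eef1a2, Eif5, Hnrnpab, Hnrnpu, Rbm15b, Rbm18, Snrpa and Srsf1, whose values may include neighbouring sequence) and 19 of 27 without the 10 rows with a copy at least 95% identical.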
